A study of Mus musculus with 6 samples.

Results

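Fibroblasts of the cecum and of the large intestine were compared by single-cell RNA sequencing. The cells came from Flare-TSLP mice, whose lamina propria was dissociated and sorted for tdTomato. A fibroblast was a barcode with 1000 to 7500 genes, 2500 to 40000 UMIs (unique molecular identifiers, each standing for 1 captured RNA molecule) and under 10% mitochondrial UMIs. It also held at least 1 UMI of Pdgfra and 3 of Dcn, and none of Prox1, Ptprc, Epcam or Myh11, which mark lymphatic endothelium, immune cells, epithelium and smooth muscle. This gate kept 10503 of 13951 cells in the cecum and 6427 of 11751 in the large intestine, together 16930 of the 102534 cells of the series. Flare-TSLP mice are C57BL/6 mice that carry tdTomato behind an internal ribosome entry site in the Tslp gene, and the sort therefore took cells in which this reporter was visible. The line was made by targeting embryonic stem cells, and cells of both libraries carried hashtags 1 to 3, antibody tags that let samples share a library. The mice were untreated for this comparison as far as the labels say, and the labels give no age or sex. Xist was near 0 in both libraries, at 0.0503 and 0.0915 CPM (UMIs of the gene in 1000000 UMIs), while the Y-linked Ddx3y stood at 107 CPM in the cecum and 89.7 CPM in the large intestine.

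There was 1 library for each region, so no test was run between the regions and no p-value is given. Each value is the sum of the UMIs of all fibroblasts of a library in CPM, and the 95% intervals are exact and cover counting error only. The spread between libraries of the same region could be measured only in the small intestine, where the proximal and the distal region had 2 libraries each, with 8391 to 17186 fibroblasts under the same gate. A gene was called where the log2 ratio of (CPM + 1) was at least 1 in size, the interval of the UMI ratio left out 1, and the size was above that between the replicates of both small intestine regions for the same gene. The fibroblasts held 79490969 UMIs in the cecum and 65593824 UMIs in the large intestine, with medians of 6933 and 9544 UMIs per cell. Values were also read in subsets of cells. Cells of a marker set held at least 3 UMIs of its genes, which for the telocyte set were Foxl1, Bmp7, Bmp3, Sox6, Wnt5a and F3. In a comparison chosen after seeing the data, the cells low in immediate early genes were those with a share of immediate early and heat shock genes under the pooled median of 1.83%, 3779 of the cecum (36.0%) and 4686 of the large intestine (72.9%).

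Fibroblasts of the gut wall lie beneath the epithelium and make its matrix and many of its growth signals, among them WNT ligands and BMP proteins that oppose each other along the crypt. Hox genes, which lie in 4 clusters and encode transcription factors, are switched on in overlapping domains along the gut in the embryo, with genes at the 5′ end of a cluster used farthest toward the anus. Adult fibroblasts keep such a positional pattern.

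Over the 10936 genes with a mean of at least 5 CPM, the median size of the log2 ratio between cecum and large intestine was 0.232, and its 95th percentile was 0.935. The same median was 0.0989 between the proximal replicates and 0.258 between the distal replicates, so a typical gene differed no more between the regions than between 2 distal libraries. The upper tail was wider between the regions. A ratio of 2-fold or more was reached by 476 genes between the regions, by 57 between the proximal replicates and by 222 between the distal replicates. The call took 210 genes as higher in the cecum, 1.92% of those tested, and 248 as higher in the large intestine, 2.27%. Both shares are the background for the calls of every gene list below. The median signed log2 ratio was -0.13, below 0, and with TMM scaling, which moves this median to 0.01, the calls became 273 and 191. The share of calls that were higher in the cecum went from 45.9% to 58.8%. At the edge of the threshold, Gas2 was just inside at a size of 1.0004 and Tafa5 just outside at 0.99979.

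**Figure D1:**
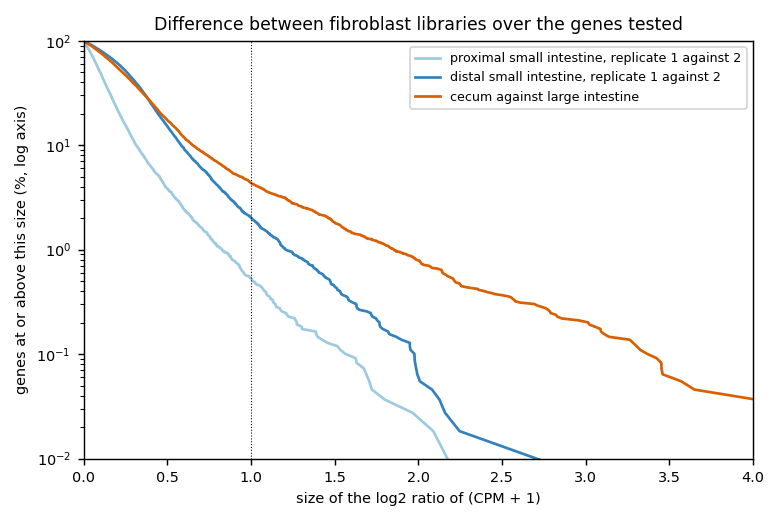
Share of the genes tested (y axis, log scale) whose log2 ratio of (CPM + 1) is at least the size on the x axis, for cecum against large intestine and for the replicate pairs of the small intestine. The dotted line marks 2-fold, which 476 genes passed between the regions, 222 between the distal replicates and 57 between the proximal replicates.

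Among the sharpest differences were those in positional transcription factors. Hoxa13 (chr6:52234602-52237822, minus strand, GRCm39), at the 5′ end of its cluster, had 0 UMIs in the cecum fibroblasts and 1562 in those of the large intestine, 23.8 CPM. Against a floor of 3 UMIs in the cecum library it was at least 631-fold higher in the large intestine. The small intestine libraries held 0, 0.0105, 0 and 0 CPM. With every cell thinned to 2500 UMIs, 5.52% of large intestine fibroblasts had a Hoxa13 UMI (95% interval 4.98 to 6.11%), and 18.5% did before thinning, while in the cecum 0 of 10503 did, which on the same floor of 3 counts allows a share of cells with a UMI of up to 0.0286%. The thinned share stood against 5 of 143 lymphatic barcodes, 3.50% (1.15 to 7.97%), in the same library, where the median depth was 7451 UMIs. These intervals overlapped, so within that library the share did not set fibroblasts apart from lymphatic barcodes. Hoxd13 likewise had 0 UMIs in the cecum and 323 UMIs in the large intestine, at least 130-fold higher, but at 4.92 CPM it fell under the mean needed for a call.

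Of the 39 annotated Hox genes 20 were tested, and 6 were called higher in the cecum and 6 higher in the large intestine. That was 30% in each direction, against 1.92% and 2.27% over all genes tested. Within the Hoxb and Hoxc clusters the called genes shared a direction, and within Hoxa they did not. All 5 tested genes of the Hoxc cluster were higher in the cecum. Hoxc10 stood at 34.1 CPM in the cecum and 8.20 CPM in the large intestine, Hoxc6 at 20.3 and 4.22 CPM, and Hoxc4 at 12.8 and 3.25 CPM. Hoxc9 and Hoxc5 were the other two. Hoxc10 was near 0 in the small intestine, with at most 0.493 CPM, whereas Hoxc6 was there at 22.7 to 55.7 CPM. The tested Hoxb genes went the other way. Hoxb2 stood at 4.81 CPM in the cecum and 16.4 CPM in the large intestine, Hoxb3 at 3.86 and 15.9 CPM, and Hoxb4 at 4.11 and 12.4 CPM. The summed level of Hoxb1 to Hoxb8 was 14.6 CPM in the cecum, 62.0 CPM in the large intestine and 137 to 233 CPM in the small intestine, so the cecum was lowest of all 6 libraries. The difference was uneven over the hashtags. In cells of the first hashtag the log2 ratio was -0.47 for Hoxb2, -0.57 for Hoxb3 and -0.033 for Hoxb4, and in the other two hashtags each lay between -1.58 and -2.16.

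Genes 9 to 11 of the Hoxa and Hoxd clusters set the cecum and the large intestine apart from the small intestine. Hoxa10 stood at 47.1 CPM in the cecum and 76.0 CPM in the large intestine, and Hoxa9 at 44.2 and 29.2 CPM, and neither was called. Hoxa11 stood at 5.33 and 16.6 CPM and Hoxd11 at 20.3 and 50.5 CPM, both called higher in the large intestine. The Hoxa genes from 9 on summed to 96.6 CPM in the cecum, to 146 CPM in the large intestine and to at most 0.421 CPM in the small intestine. Hoxa11os, an RNA gene on the opposite strand that overlaps Hoxa11, was at 8.1 CPM in the cecum and 51.9 CPM in the large intestine. Hoxd11 did not keep its call. Its log2 ratio of -1.28 became 0.15 in cells of the first hashtag, 0.016 in cells of the telocyte set and -0.49 in cells low in immediate early genes, where Hoxa5, at 0.84, was the other Hox gene no longer called.

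**Figure D2:**
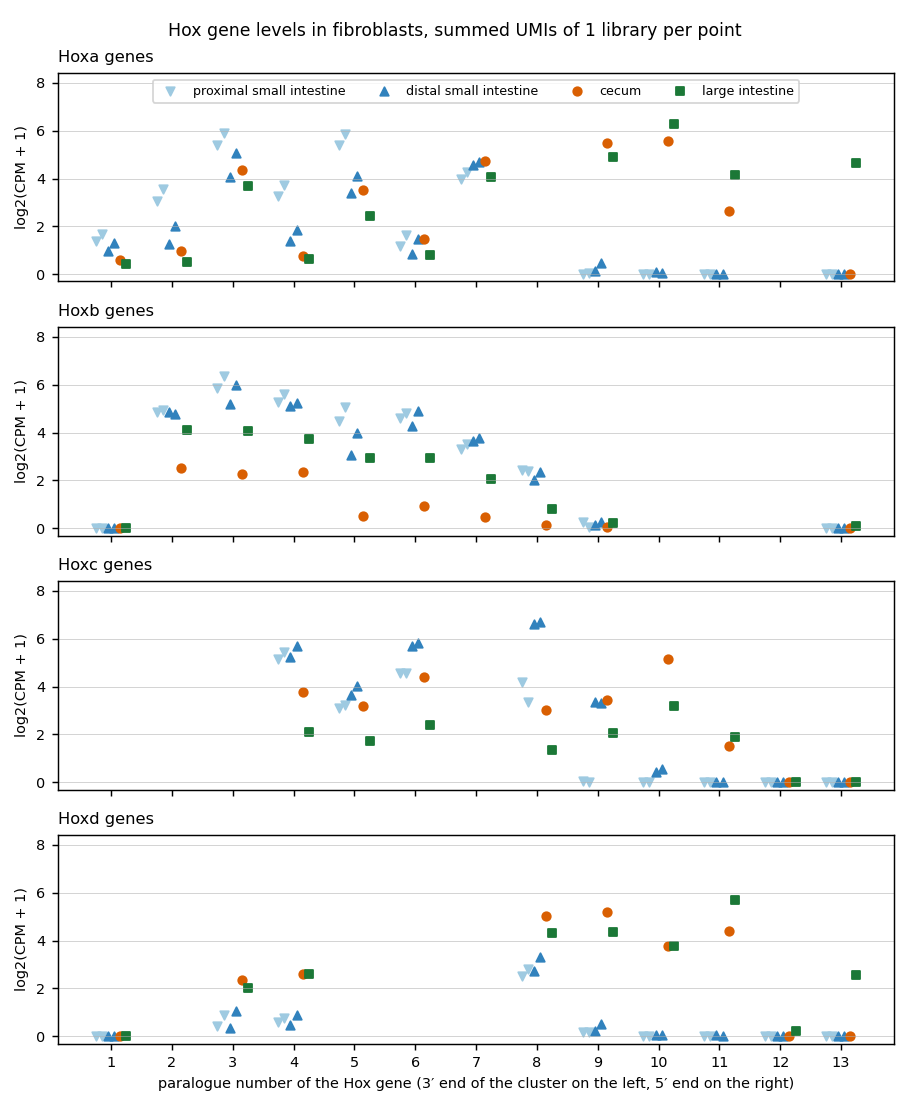
Level of each Hox gene (y axis, log2 of CPM + 1) in the fibroblasts of the 6 libraries, by cluster (panels) and by paralogue number (x axis). Each point is 1 library. Hoxc4 to Hoxc10 lie higher in the cecum than in the large intestine, Hoxb2 to Hoxb8 lower, and Hoxa13 and Hoxd13 are above 0 only in the large intestine among these libraries, apart from 0.0105 CPM of Hoxa13 in 1 proximal library.

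Among 27 other positional transcription factors tested, 6 were called higher in the large intestine and 1 in the cecum. These were 22.2% and 3.70% of the list, against 2.27% and 1.92% over all genes tested. Isl1, a LIM-homeodomain factor, stood at 1.08 CPM in the cecum and 19.6 CPM in the large intestine, and at no more than 0.0630 CPM in the small intestine. Sox6, an SRY-box factor, stood at 34.4 and 300.1 CPM, against 8.25 to 17.7 CPM in the small intestine. Foxl1, the factor that marks telocytes, stood at 5.46 and 14.9 CPM. Pbx3, a Hox cofactor, stood at 70.9 and 207 CPM, and Tbx3 and Foxf2 were the others. In cells low in immediate early genes 3 of the 6 were no longer called, Tbx3 at -0.53, Foxf2 at -0.64 and Foxl1 at -0.77. Tbx3 and Foxl1 also lost their calls with 10% free RNA subtracted and with a pseudocount of 5 CPM. With a looser gate Foxl1 was not called either.

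Of 8 BMP ligands tested, 4 were called higher in the large intestine and 0 in the cecum, and 4 were not called. The 4 calls were 50% of the list, against 2.27% over all genes tested. The median log2 ratio of the list was -1.17 against -0.13 over all genes tested. Bmp3 stood at 1.76 CPM in the cecum and 31.8 CPM in the large intestine, Bmp7 at 6.47 and 47.3 CPM, Gdf10 at 15.0 and 55.6 CPM, and Bmp5 at 171 and 487 CPM. The log2 ratio of Gdf10 was -0.51 in cells of the first hashtag, against -1.82 in all fibroblasts. Wnt5a, the only WNT ligand called among 8 WNT ligands and R-spondins tested, stood at 45.2 and 116 CPM. This call was 12.5% of its list, against 2.27% over all genes tested. In cells low in immediate early genes Wnt5a, at -0.98, and Bmp5, at -0.88, were not called. The regional difference in Bmp7 and Sox6, genes of the telocyte set, was also present outside the fibroblasts. After thinning, Bmp7 was found in 1.12% of cecum and 9.83% of large intestine fibroblasts, and in 1.57% and 13.99% of lymphatic barcodes. Sox6 was found in 4.56% and 17.9% of fibroblasts and in 3.15% and 16.1% of lymphatic barcodes. In the large intestine neither share was above the lymphatic one beyond its interval, 8.76 to 20.8% for Bmp7 and 10.5 to 23.1% for Sox6, so at this depth these shares are not told from background. The sum over a library does not tell more cells of a kind from more RNA per cell. After thinning, the telocyte set held 1.74% of cecum and 15.1% of large intestine fibroblasts. The Pi16 set held 15.0% and 9.65%, the Grem1 set 5.55% and 8.88%, and the Adamdec1 set 42.2% and 54.8%. Ratios within the sets were read in cells chosen without thinning. Without thinning the telocyte set held 8.47% and 35.1%, and the Pi16 set 36.8% and 40.9%. The Grem1 set then held 23.8% and 22.6%, and the Adamdec1 set 45.7% and 62.8%. Depth differed between the libraries, so the same floor of 3 UMIs may choose unlike cells in each. The telocyte set is chosen by Bmp3, Bmp7, Sox6 and others, so its share rises with their levels. The paper describes a telocyte cluster found mostly in the large intestine, with few cells in the cecum. It also describes a cluster of subepithelial myofibroblasts abundant in both regions, and calls the signatures of the sorted cells of both regions similar. How far the mix of cells set these ratios was not tested. A cell could belong to several marker sets, so cells of the Adamdec1 set include cells of the telocyte set. Within the Adamdec1 set the log2 ratio of Bmp7 was -2.46 and that of Bmp3 -4.01, and in cells of no set, which by definition hold few UMIs of the telocyte genes, that of Bmp7 was -0.27.

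Secreted antagonists divided. Among 12 BMP antagonists tested, Chrdl1 stood at 32.0 CPM in the cecum and 3.86 CPM in the large intestine, whereas Grem1, the antagonist made by trophocytes below the crypts, stood at 57.2 and 215 CPM. Grem1 was uneven within the cecum. Its level over the 3 hashtags ran from 20.3 to 149 CPM in the cecum and from 131 to 217 CPM in the large intestine, and these ranges overlapped. Among 8 secreted WNT inhibitors tested, Sfrp2 stood at 25.5 and 3.34 CPM and Dkk2 at 10.5 and 3.72 CPM, both called higher in the cecum, and Wif1 at 0.189 and 10.6 CPM. Sfrp2 and Wif1 were at most 0.158 CPM in the small intestine, while Dkk2 was there at 398 to 710 CPM, far above the cecum and the large intestine. The direction of Dkk2 turned in cells of the Pi16 set, at a log2 ratio of -0.17, and of the Grem1 set, at -0.67.

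Matrix genes held 8 calls higher in the cecum and 4 higher in the large intestine among 76 tested. These were 10.5% and 5.26%, against 1.92% and 2.27% over all genes tested. The genes of type I collagen, the main fibrillar collagen, were both higher in the cecum, Col1a1 at 7123 against 2706 CPM and Col1a2 at 6421 against 3064 CPM. The small intestine held Col1a1 at 3058 to 3636 CPM, nearer to the large intestine. In cells low in immediate early genes, only Col6a5 of the 8 matrix genes was called again. There the log2 ratio of Col1a1 went from 1.40 to 0.57 and that of Col1a2 from 1.07 to 0.35, and Col14a1, Fmod, Adamts1, Adamts5 and Has1 were the others that lost the call. Col6a5 (chr9:105733270-105837858, minus strand, GRCm39), a chain of type VI collagen, stood at 178 CPM in the cecum and 19.9 CPM in the large intestine, a ratio of 8.90 (95% interval 8.41 to 9.43). It stood at 141 to 231 CPM in the small intestine, so the large intestine was the library apart. Col12a1, at 70.2 and 273 CPM, and Tnc, at 441 and 904 CPM, both matrix proteins of tissue under load, were higher in the large intestine, as were Mmp10 and Edil3. Tnc, at -0.61, and Edil3, at -0.47, were not called in the cells low in immediate early genes. Edil3 was at -0.24 in cells of the first hashtag.

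A further group that was higher in the cecum consisted of immediate early and heat shock genes, which cells switch on within minutes of a stimulus or stress. All 30 tested members had a higher CPM in the cecum, and the median log2 ratio was 1.14. Of them 18 were called higher there, 60% against 1.92% over all genes tested, and 0 in the large intestine. The members summed to 38829 CPM in the cecum, 14351 CPM in the large intestine and 10314 to 15129 CPM in the small intestine. Both ends of that range were distal replicates. The median log2 ratio of the list was 0.467 between the distal replicates and 0.0621 between the proximal ones. Fos stood at 3978 CPM in the cecum and 1342 CPM in the large intestine, Fosb at 2055 and 430 CPM, Ier2 at 2036 and 425 CPM, Dusp1, a phosphatase that switches off MAP kinases, at 2569 and 592 CPM, and Atf3 at 1506 and 358 CPM. The cecum library was highest of all 6 for each of these. In cells of the first hashtag the log2 ratio was 0.81 for Fos, 1.43 for Fosb, 1.65 for Ier2, 1.62 for Dusp1 and 1.56 for Atf3. There Jun was at 0.58 and Jund at 0.56. Over the 3 hashtags the cecum level ran from 1204 to 1747 CPM for Ier2 and from 2785 to 3460 CPM for Fos. Both ranges lay below the level in all cecum fibroblasts. In cells with 1 hashtag the list median was 1.02 and 15 members were called. Of the heat shock genes of the list, only Hspb1 and Dnajb1 were among the 18 called. Hspb1 lost its call with free RNA subtracted, with a looser gate and in cells with 1 hashtag. The same list was also higher outside the fibroblasts. In the 127 lymphatic barcodes of the cecum it summed to 37238 CPM, against 15884 CPM in the 143 of the large intestine, and in free RNA, taken from barcodes with at most 100 UMIs, to 39661 and 17193 CPM. In the few immune barcodes, 26 and 62, it summed to 16792 and 17649 CPM. Depth and mitochondrial share also differed, with medians of 6933 UMIs and 2.00% mitochondrial UMIs in cecum fibroblasts and 9544 UMIs and 2.89% in those of the large intestine. With cells thinned to 2500 UMIs the list median was 1.11 and 18 members were called. With scaling that left out mitochondrial and ribosomal protein genes it was 1.13 with 18 called. These steps change the weight of each cell or the total of a library, and cannot remove differences between the cells themselves. Whether depth or cell quality had a part was not tested.

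**Figure D3:**
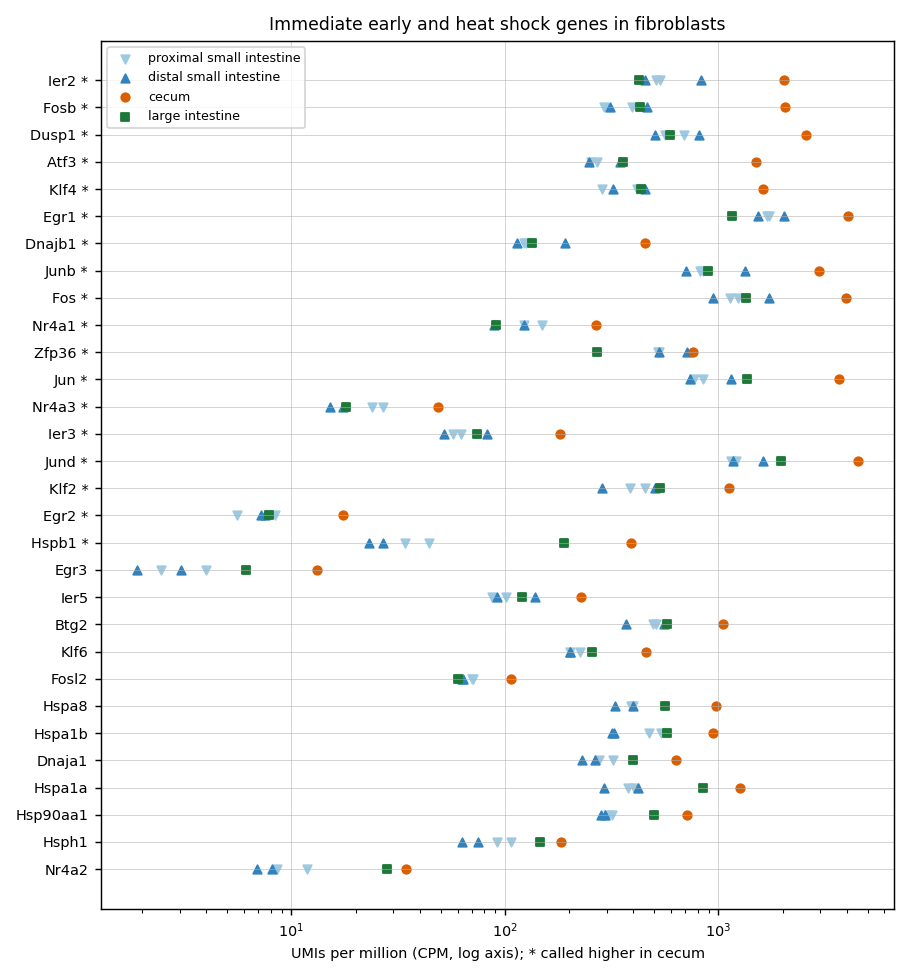
CPM (x axis, log scale) of the 30 tested immediate early and heat shock genes in the fibroblasts of the 6 libraries, 1 point for each library, sorted by the ratio of cecum to large intestine. An asterisk marks the 18 called genes, and the cecum point lies to the right of the large intestine point in every row.

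Many of these genes answer to cyclic AMP and calcium through the cyclic AMP response element (CRE). The promoters from 250 bases before to 50 after the start site (RefSeq, GRCm38.p6) are shown for 3 called members, because all tested members of the list were higher in the cecum. They are the 3 with the highest ratio for which the RefSeq table had an entry. Capitals mark the CRE, TGACGTCA, or its half-site, TGACG on either strand, which the full site contains.
Fosb (chr7:19309996-19310295, minus strand): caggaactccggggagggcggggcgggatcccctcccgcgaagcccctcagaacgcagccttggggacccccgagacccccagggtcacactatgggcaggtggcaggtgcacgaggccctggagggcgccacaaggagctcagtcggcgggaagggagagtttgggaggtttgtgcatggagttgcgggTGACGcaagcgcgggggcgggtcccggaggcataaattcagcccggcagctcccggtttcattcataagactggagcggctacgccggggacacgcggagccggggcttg
Dusp1 (chr17:26508423-26508722, minus strand): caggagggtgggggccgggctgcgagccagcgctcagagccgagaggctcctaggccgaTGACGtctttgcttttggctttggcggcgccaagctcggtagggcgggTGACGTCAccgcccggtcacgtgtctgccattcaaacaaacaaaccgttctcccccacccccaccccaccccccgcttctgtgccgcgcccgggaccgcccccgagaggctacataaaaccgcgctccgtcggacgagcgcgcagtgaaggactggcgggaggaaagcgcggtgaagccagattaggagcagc
Atf3 (chr1:191183284-191183583, minus strand): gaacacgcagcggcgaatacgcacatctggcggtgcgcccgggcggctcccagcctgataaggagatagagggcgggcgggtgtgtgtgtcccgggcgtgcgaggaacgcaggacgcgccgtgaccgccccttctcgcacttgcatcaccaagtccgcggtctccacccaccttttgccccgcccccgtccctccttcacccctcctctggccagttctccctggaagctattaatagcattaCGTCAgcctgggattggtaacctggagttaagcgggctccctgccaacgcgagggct
Dusp1 held a full CRE and each of the 3 held the half-site. Of the 25 list members with an entry, 15 held the half-site in a promoter, 60%, against 36.7% of the 8630 tested genes with an entry and 23.0% of all 27025 genes with one. The full CRE stood in 2 of the 25, against 3.63% of the tested genes. The half-site was searched after the promoters had been seen. A CArG box was found in 2 of the 25 and in 1.58% of the tested genes, an AP-1 site, TGANTCA, in 0 and in 5.99%, and a heat shock element in 1 and in 0.556%. These are matches of letters in 1 window and say nothing of binding.

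Chemokines gave 3 calls in each direction among 19 tested, 15.8% each. Cytokines and growth factors gave 3 calls higher in the cecum and 6 higher in the large intestine among 41, 7.32% and 14.6%. Over all genes tested the shares were 1.92% and 2.27%. For the 6 cytokines and growth factors higher in the large intestine, the log2 ratio was -1.66 for Ptn, -1.58 for Tnfsf13b and -1.44 for Inhba. It was -1.17 for Kitl, -1.12 for Tnfsf10 and -1.02 for Fgf1. In cells low in immediate early genes Kitl, Tnfsf10 and Fgf1 were not called, at -0.89, -0.64 and -0.82. Il6 stood at 71.0 CPM in the cecum and 8.26 CPM in the large intestine, Cxcl1, a neutrophil chemokine, at 378 and 78.8 CPM, Cxcl2 at 12 and 2.18 CPM, Has1, a hyaluronan synthase, at 379 and 81.1 CPM, and Tnfaip3, the NF-kB brake A20, at 108 and 24.8 CPM. The comparison was repeated in the cells low in immediate early genes. The choice of cells used the listed genes themselves, so their own fall there follows from it, and genes that vary with them from cell to cell can be lowered by the same choice. There the log2 ratio of Il6 went from 2.96 to 0.31, that of Cxcl1 from 2.25 to -0.04 and that of Has1 from 2.21 to -0.10. No immediate early gene was called, and the calls were 141 and 184. Of the 210 and 248 main calls, 68 and 146 were called again, and of the 51 and 56 named genes among them, 21 and 34. Hoxa13 at -4.77, Hoxc10 at 2.13, Col6a5 at 3.44 and Sox6 at -2.93 stayed near their values in all fibroblasts.

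**Figure D4:**
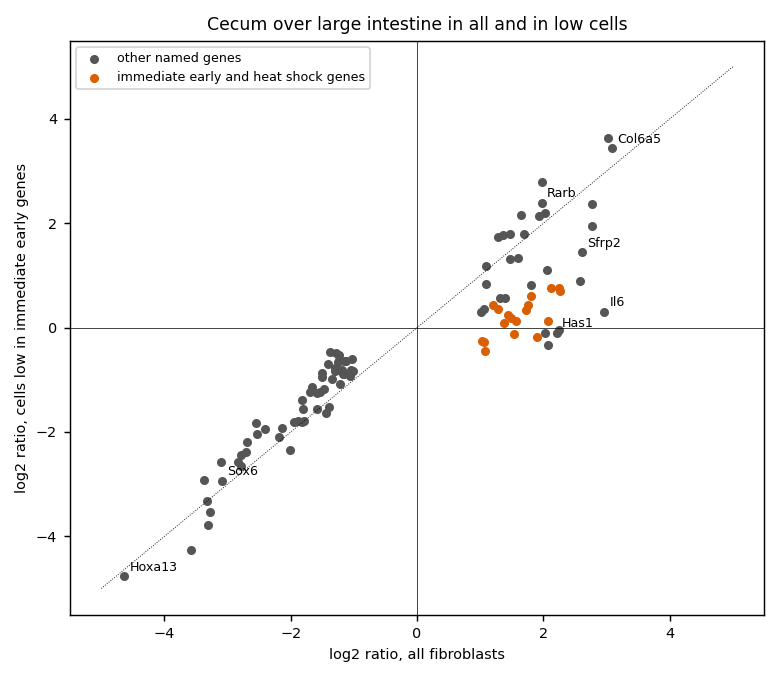
Log2 ratio of cecum to large intestine for 104 of the called genes, in all fibroblasts (x axis) and in cells low in immediate early and heat shock genes (y axis), with equality dotted. The immediate early genes (orange), and Il6 and Has1, fall toward 0 on the y axis, while Hoxa13, Col6a5, Rarb and Sox6 lie near the dotted line.

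Other genes of the cecum were Lrp1b at 59.1 and 6.40 CPM and Lrrtm3 at 166 and 23.4 CPM. Vegfd, a lymphangiogenic factor, stood at 102 and 23.7 CPM, and Rarb, a retinoic acid receptor, at 74.9 and 18.3 CPM. Complement components C7, at 210 and 68.7 CPM, and C6, at 10.7 and 1.97 CPM, were called among 16 complement genes tested, as was Masp1 in the other direction. As shares of that list the calls were 12.5% and 6.25%, against 1.92% and 2.27% over all genes tested. The large intestine held Epha3, an ephrin receptor, at 58.0 against 4.88 CPM in the cecum, Tmem158 at 210 against 28.7 CPM, and Plcb1 at 259 against 36.5 CPM. In cells of the first hashtag the log2 ratio was -1.65 for Epha3 and -1.04 for Plcb1, against -3.33 and -2.79 in all fibroblasts. Rbp4, which carries retinol, was at 109 against 30.4 CPM.

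Most of the receptors called were higher in the large intestine. Of 29 hormone and neurotransmitter receptors tested, 5 were called higher there and 1 in the cecum. These were 17.2% and 3.45% of the list, against 2.27% and 1.92% over all genes tested. Chrm3, a muscarinic receptor, stood at 12.3 CPM in the cecum and 59.4 CPM in the large intestine, Ednra, an endothelin receptor, at 44.2 and 159 CPM, and Esr1, an estrogen receptor, at 17.6 and 59.3 CPM, with Ednrb and Adrb1 besides. Neither of the last pair was called in cells low in immediate early genes, at -0.89 and -0.81. The direction of Ednrb also turned in cells of the telocyte set, at 0.41, and of no set, at 0.56. The log2 ratio of Chrm3 was -0.86 in cells of the first hashtag, against -2.19 in all fibroblasts. Agtr1a, an angiotensin receptor, was higher in the cecum at 104 and 48.5 CPM. Glp2r, the receptor of the gut hormone GLP-2, stood at 123 and 107 CPM and was not called. Tslp stood at 2.33 and 2.16 CPM, a ratio with an interval of 0.859 to 1.35 that includes 1. The reporter tdTomato stood at 6.94 and 5.43 CPM, a log2 ratio of 0.31, and neither was called. Cells of both libraries were sorted on this reporter, so these levels describe sorted cells and do not compare Tslp between the regions.

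Several genes of antigen presentation and interferon response were higher in the large intestine. Of 6 MHC class II genes tested 3 were called higher there, 50% against 2.27% over all genes tested. They were H2-Ab1 at 5.57 and 16.6 CPM, Cd74 at 6.34 and 16.6 CPM, and H2-Aa at 3.42 and 9.48 CPM. Free RNA of the large intestine held Cd74 at 268 CPM and that of the cecum at 64.5 CPM. In cells of the first hashtag the log2 ratio was 0.35 for Cd74, 0.10 for H2-Aa and -0.66 for H2-Ab1, and in cells low in immediate early genes none of the 3 was called, at -0.65, -0.81 and -0.69. Interferon response genes gave 4 calls of 35, all higher in the large intestine (Gbp4, Irgm1, Gbp3 and Ifi44), with a list median of -0.57. That was 11.4% of the list, against 2.27% over all genes tested. None of these 4 was called in cells low in immediate early genes, at -0.92 to -0.81. The chemokines called higher in the large intestine were Cxcl9, at 106 and 250 CPM, Cxcl13, at 35.6 and 103 CPM, and Ccl5, at 1.43 and 8.86 CPM. Cxcl9 and Cxcl13 were not called in the same cells, at -0.62 and -0.94, and Cxcl9 was at 0.068 in cells of hashtag 3. Ccl5 lost its call with free RNA subtracted, with a stricter gate, with cells thinned to 2500 UMIs and with TMM scaling.

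Markers of other cells were read in the same sums. Smooth muscle and myofibroblast markers summed to 167 CPM in the cecum and 526 CPM in the large intestine, with Myh11 at 0 by the gate and Acta2 alone at 93.4 and 448 CPM. Acta2 carried this difference, and Des, another marker of the set, stood at 45.7 and 24.9 CPM. Pericyte markers summed to 76.8 and 209 CPM, led by Rgs5 at 11.1 and 124 CPM, with Notch3 at 4.68 and 3.25 CPM, and to 642 to 1050 CPM in the small intestine. Epithelial markers summed to 2.19 and 15.6 CPM, with Epcam at 0 by the gate and Fabp1 at 0 in both, and immune markers to 13.8 and 40.9 CPM. Glial markers summed to 243 and 193 CPM, lymphatic markers to 14.5 and 18.1 CPM, blood endothelial markers to 20.4 and 27.3 CPM and mesothelial markers to 2.45 and 13.3 CPM. Their part in the calls higher in the large intestine was not tested.

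The 107 called genes named by list or rank were also read within cells of 4 marker sets and in cells of none. The ratio had the same direction in every set read for 94 of them, and in all 3 hashtags for 103. The genes were called on these same cells, so such agreement follows in large part from the call and is no replication. Among those that turned in a subset were Col12a1 at 0.66, Masp1 at 0.59, Tnfsf13b at 0.46, Rbp4 at 0.29 and Cd74 at 0.17. Rarb turned the other way, at -0.58. A single hashtag could be assigned to 5849 fibroblasts of the cecum (55.7%) and 4087 of the large intestine (63.6%). In these cells 165 of the 210 and 187 of the 248 main calls were called again. Of the named genes, 46 of 51 and 45 of 56 were, and Col1a2, Klf2, Foxf2, Foxl1, Cxcl9, Kitl, Tnc and Edil3 were among those lost. Which mouse carried which hashtag is not given in the sources used here, so the hashtags, which may mark separate mice, were read as subsets of their library. Sox6, a gene of the telocyte set, had a log2 ratio of 1.02 in cells of no set, against -3.09 in all fibroblasts. Cells of no set hold under 3 UMIs of the telocyte genes, so their choice caps Sox6 and nothing is read from its turn. Col6a5, which belongs to no set, had -0.35 there against 3.09, on 60 and 46 UMIs. Rgs5 and Epha3 kept their direction in all 5 subsets. A total of 23 fibroblast barcodes occurred in both libraries.

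**Figure D5:**
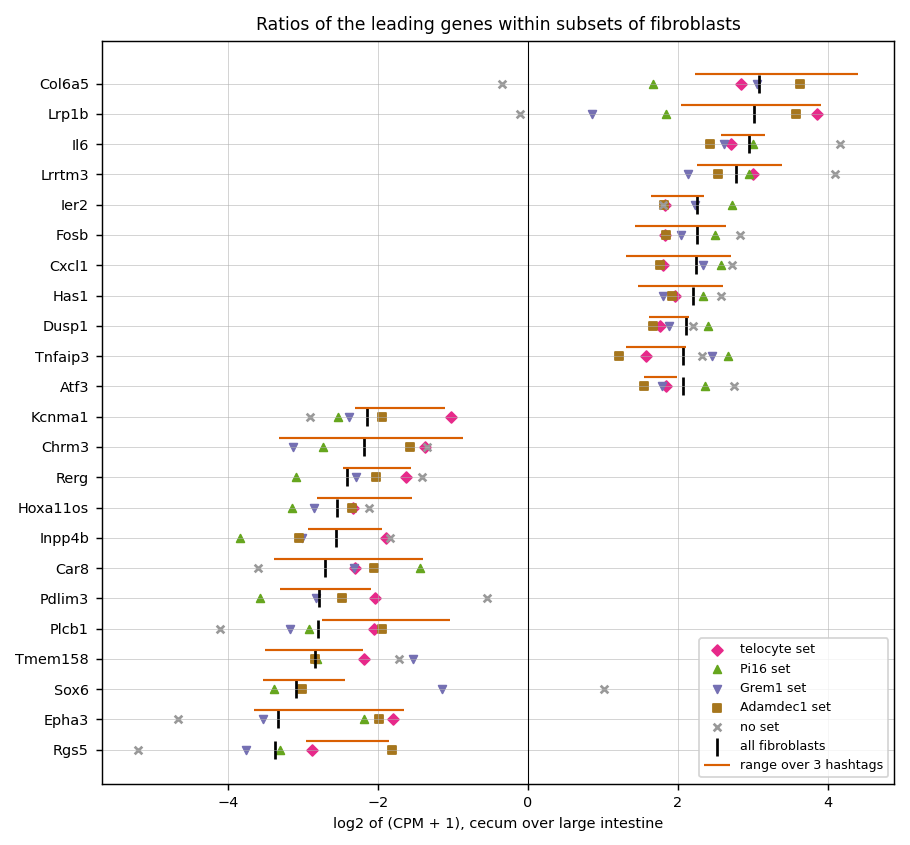
Log2 ratio of cecum to large intestine (x axis) for 11 leading genes of the cecum and 12 of the large intestine, in all fibroblasts (black bar), within cells of each marker set and of none (symbols), and as the range over 3 hashtags (orange line). Most symbols lie on the side of the black bar, and Col6a5, Lrp1b and Sox6 cross 0 in cells of no set, whose choice caps Sox6.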

How the data were processed

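Reads from 6 libraries (10x Genomics 3′ kit, v3.1) were aligned by the authors with Cell Ranger to mm39 with tdTomato added. The submitters' notes give version 8.1.0 and the matrix headers 8.0.1. The deposited values are raw UMI counts per gene and barcode, before any cell calling, doublet removal or ambient RNA correction. Cell filters took the limits that the study's methods state, fibroblasts were gated as stated, and UMIs were summed per library with Python 3.11.15 and pandas 2.3.3. The libraries held 109675337 (cecum) and 129914551 (large intestine) gene UMIs. Intervals are exact Poisson, conditional binomial or Clopper-Pearson. Doublets were kept in the main values and removed with Scrublet (scanpy 1.11.5) as an alternative. TMM factors came from edgeR 4.0.16. The comparison was checked on counts with known folds. Coordinates are from GENCODE vM39.

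The genes named were, for each direction, the 12 called genes of largest ratio that had at least 50 CPM in the higher library and at least 0.5 of their free RNA level there, without predicted, mitochondrial, ribosomal, immunoglobulin and sex-linked genes; called members of 15 gene lists; every Hox gene; and markers. The gate and lists were chosen with earlier results of these data known. Alternatives were TMM, scaling without mitochondrial and ribosomal genes, other filters and pseudocounts, free RNA subtraction, hashtags, doublets, other gates, thinning, each replicate pair as noise, and 2 chosen after seeing the data. Some genes that met the naming rule are not reported here.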

Additional observations from a re-analysis of the deposited data

How the results depend on the processing

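The counts of 210 and 248 calls were within 1.5 times of these under most alternatives. A mean of at least 1 CPM gave 376 genes higher in the large intestine, and a mean of at least 20 CPM gave 133 and 118, with fewer genes tested. A pseudocount of 5 CPM gave 162 higher in the large intestine. It left 8 of the 12 Hox calls and ended those of Hoxa5, Hoxc5, Hoxc9 and Hoxb4. The median size of the ratio, 0.232, ran from 0.149, in cells low in immediate early genes, to 0.241. TMM ended the calls of Ccl5, Fgf1, Tnc, Gbp3, Irgm1 and Ifi44. Of 1498 values of the 107 genes under alternatives, 1177 were scored as the same, 308 as moved and 13 as reversed in direction. Those reversed in cells of hashtag 1 alone were Hoxd11 at 0.15, H2-Aa at 0.10 and Cd74 at 0.35, and in hashtag 3 alone Cxcl9 at 0.068. In cells low in immediate early genes, an alternative chosen after seeing the data, they were Cxcl1 at -0.036, Has1 at -0.10, Tnfaip3 at -0.33, Cxcl2 at -0.10, Egr2 at -0.28, Nr4a1 at -0.12, Klf2 at -0.45, Klf4 at -0.19 and Hspb1 at -0.26. The fall of the 5 list members among these follows from the choice of cells by that list, and for the others the cause was not tested. With 10% of each sum subtracted along the free RNA profile, H2-Aa and Cd74 were set to 0 in both libraries by the subtraction, so it gives no ratio for them, and H2-Ab1 was at -0.94. No paired analysis was possible because each region has 1 library and which mouse carried which hashtag is not given in the sources used here. The ratios within each hashtag stand as values with no test. Leaving out a library would leave no comparison. Genes near 5 CPM rest on the fewest UMIs.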
